A study of Spermophilus dauricus with 30 samples.

Results

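The comparison asks how skeletal muscle RNA of Daurian ground squirrels before hibernation (PRE) differed from that of summer active animals (SA) with 2 muscles combined. PRE had 6 libraries, 3 labelled SOL and 3 labelled EDL, and SA had the same, so 12 of the 30 libraries of the series are compared. SOL usually stands for soleus and EDL for extensor digitorum longus, both leg muscles. Within a state, counts of same-numbered SOL and EDL libraries were added, which gave 3 PRE sums against 3 SA sums. Every library is labelled wild type and carries the same treatment entry, the word hibernarion, also in SA, where it goes against the state. The state is therefore taken from the titles and descriptions. Age, sex, dates, feeding and temperature are not given in the labels, and season cannot be told apart from anything else that differed between the PRE and the SA animals. The series has 3 more states, which gave 9 more sums: HIB is hibernation, IBA is the arousal that interrupts torpor, and POST follows hibernation. They shared the estimate of spread and are used below to follow what changed.

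A ground squirrel of a seasonal species feeds heavily and stores fat in late summer, lowers its activity, and then passes the winter in bouts of torpor broken by short arousals. The soleus is a slow, postural leg muscle and the extensor digitorum longus a fast one, and hibernators are known for keeping muscle mass and function through months of disuse.

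The sums held 70248929, 75139705 and 73899443 counts in PRE and 68716472, 72399251 and 70757977 in SA. The SOL library gave 44.3% to 51.9% of the counts of a PRE sum and 48.0% to 52.6% of those of a SA sum. The table lists 27394 identifiers, most of them plain numbers, which the files do not pair with gene names. The tissue could therefore not be checked against marker genes, and the results are given as numbers of identifiers and the sizes of their changes. Of the 27394, 17306 had enough counts over the 15 sums to be tested, 4498 had counts in the 6 PRE and SA sums but too few, and 5591, of which 1 was tested, had none there. The 6 sums parted by state on the first principal component of log2 CPM (counts scaled to the size of the sum), which carried 36.9% of their variance. The PRE sums scored 39.9, 31.3 and 52.4 and the SA sums -60.2, -25.0 and -38.4.

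Before hibernation, 594 of 17306 identifiers differed from summer at an adjusted p under 0.05 in edgeR's quasi-likelihood test, which is 3.43%. Of these, 227 were higher in PRE (1.31% of those tested) and 367 were lower (2.12%). In bulk muscle, fewer cells of a type and less RNA per cell cannot be told apart, which holds for every change given here. Among the called identifiers the falls were larger than the rises, with a median log2 fold change of 0.73 for the higher and -1.12 for the lower. The lower ones also had lower levels (median 11.3 against 36.2 CPM) and larger standard errors (median 0.237 against 0.159). At means of 1 to 10 CPM the medians were 1.13 and -1.43, and at 10 to 100 CPM 0.635 and -0.932. At 100 to 1000 CPM they were 0.734 and -0.842. Whether rises and falls differed in size at equal level was not tested. Among the 227 rises, 49 exceeded 2-fold and 17 exceeded 4-fold. Among the 367 falls, 221 exceeded 2-fold and 55 exceeded 4-fold. The middle 50% of the higher identifiers lay between 0.60 and 0.94 on the log2 scale, and that of the lower ones between -1.63 and -0.88. Over all 17306 identifiers the median was 0.02, so the scaling placed the bulk of the transcriptome at no change. An unadjusted p under 0.05 was found for 3932 identifiers, or 22.7%, many more than were called.

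The PRE and SA sums did not overlap for 226 of the 227 rises and 366 of the 367 falls. Among all tested identifiers, 30.4% had no overlap between the 3 PRE and the 3 SA sums. No overlap is close to what a call of this kind requires with 3 sums against 3, so these counts describe the calls and add no evidence to them. No identifier had at least 10 counts in each sum of 1 state and none in the other. For 6 of the higher identifiers all SA sums lay under the level of 10 counts, and for 11 of the lower ones all PRE sums did. These could pass the filter on low counts only through sums other than the ones named.

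**Figure D1:**
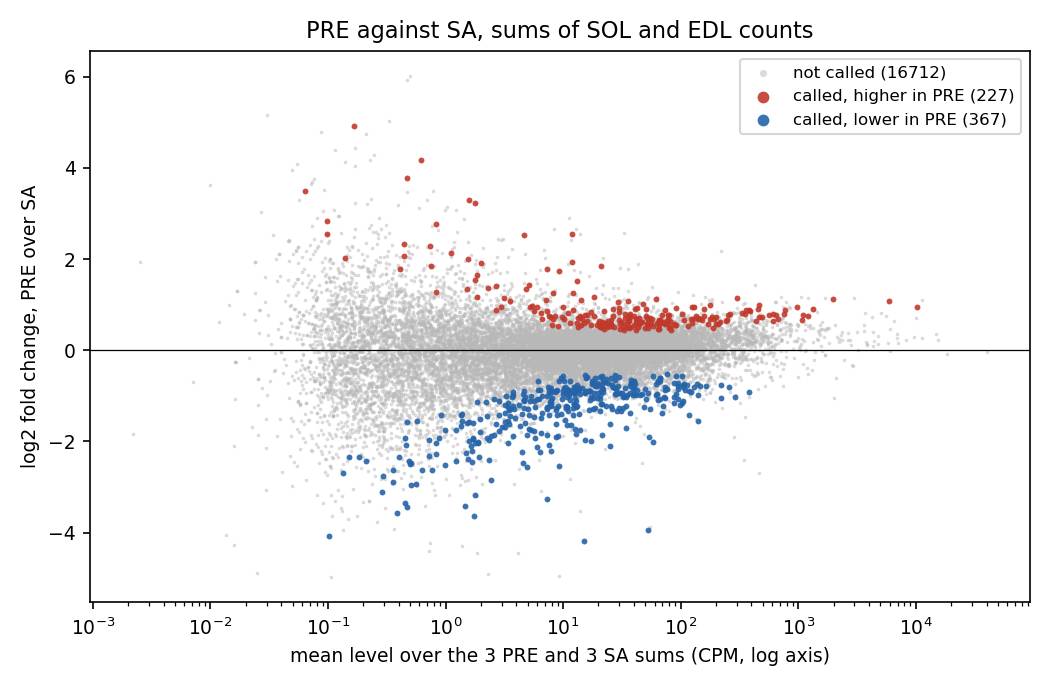
Log2 fold change of PRE over SA for each of the 17306 tested identifiers (vertical) against its mean level over the 6 sums (horizontal, CPM on a log axis). The 227 identifiers called higher are red and reach about 10200 CPM, and the 367 called lower are blue and lie below about 1000 CPM.

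The called rises lay at higher levels of expression than the called falls in the median, a difference that was not tested. The higher identifiers had a median level of 44.7 CPM in PRE and 27.9 CPM in SA, and the lower ones 7.19 CPM in PRE and 15.3 CPM in SA. Of 5026 tested identifiers with a mean of 1 to 10 CPM, 36 were called higher and 134 lower. Between 10 and 100 CPM, 122 were higher and 179 lower of 7061. Between 100 and 1000 CPM the order turned, with 48 higher and 22 lower of 1511. At 1000 CPM or more, 7 of 102 were called, each of them higher. Under 1 CPM only 46 of 3606 were called, 14 higher and 32 lower, with median log2 fold changes of 2.45 and -2.46.

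The 7 abundant identifiers that rose had log2 fold changes of 0.67 to 1.12 (edgeR adjusted p from 0.0185 to 0.0410). Together they took 2.89%, 2.54% and 2.97% of all counts in the PRE sums, against 1.42%, 1.86% and 1.59% in the SA sums. All 3 PRE sums lay above all 3 SA sums. In SOL their log2 fold changes ran from 0.75 to 1.14 and in EDL from 0.53 to 1.31. For 6 of the 7 the PRE and SA libraries did not overlap in either muscle, against 11.7% of the 16007 identifiers tested in all 3 fits. The 7 were chosen by PRE and SA sums that hold these libraries. The lack of overlap in sums and libraries is therefore largely fixed by that choice and adds no evidence. The median log2 difference of the 7 from SA was 0.94 in HIB, 0.54 in IBA and 0.78 in POST.

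All 227 higher identifiers together held 5.23%, 4.76% and 5.39% of the counts in PRE and 2.93%, 3.42% and 3.22% in SA. The 367 lower ones held 0.643%, 0.606% and 0.585% in PRE and 1.54%, 1.15% and 1.42% in SA. The identifiers that fell were thus more numerous but carried a smaller part of the muscle's messenger RNA. Among the 50 most abundant identifiers, 43 had a positive and 7 a negative log2 fold change, with a median of 0.28, and 2 were called, both higher. These 50 held 31.4 ± 1.11% of the counts in PRE and 28.9 ± 3.01% in SA (SD, n = 3 each), a difference of 2.47 percentage points (exact permutation test, two-sided, p = 0.30, where 3 against 3 cannot go below 0.10). The difference was 4.18 points without SA replicate 2, 1.36 without SA replicate 1 and 1.84 to 2.89 with any other sum left out. The 500 most abundant held 57.7 ± 0.549% in PRE and 53.6 ± 2.41% in SA (SD, n = 3 each; exact permutation test, two-sided, p = 0.10, the smallest possible). All PRE sums thus lay above all SA sums for the wider set, and the narrower set overlapped.

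Some identifiers start with letters, as Novel00373 does, and 955 of the 1016 were tested, with a median level of 1.29 CPM against 11.4 CPM for plain numbers. Of the 955, 15 were higher in PRE and 4 lower, while 212 of the 16351 plain numbers were higher and 363 lower. Whether the 2 kinds differed in this was not tested. The prefixed identifiers took 0.552 ± 0.034% of the counts in PRE and 0.500 ± 0.0236% in SA (SD, n = 3 each; exact permutation test, two-sided, p = 0.20).

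The changes were then looked at in each muscle alone. Fitted on its own 15 libraries, SOL gave 9 calls between PRE and SA (0.0547% of 16443 tested), 4 higher and 5 lower, and EDL gave 0 (0.0% of 16299). Without adjustment, p was under 0.05 for 3343 identifiers in SOL and 2366 in EDL. DESeq2, with its own adjusted p, called 1073 in SOL and 539 in EDL. Of the 9 SOL calls, 8 were also called in the sums, 3 higher and 5 lower. The SOL count depended on which libraries set the spread: it was 979 without POST replicate 1, which is in neither group, 424 when PRE and SA libraries alone were fitted, and 1 to 2 without 1 PRE or SA library. In EDL the lowest edgeR adjusted p was 0.0683, and 58 were called without SA replicate 2.

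The direction was nevertheless shared. Of the 227 higher identifiers, 221 were tested in both muscles, and all 221 had a positive log2 fold change in SOL and in EDL. Of the 367 lower ones, 361 were tested in both, and 360 were negative in both. Among the 16007 identifiers tested in all 3 fits, 78.3% had the same sign in the 2 muscles. The muscles are parts of the sums, so a shared sign is partly fixed by the choice of called sums and is a description. Each muscle had an unadjusted p under 0.05 for 210 of the 221 rises and 276 of the 361 falls, and for 1344 of all 16007.

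In SOL, 216 of the 221 rises and 354 of the 361 falls had PRE libraries that did not overlap the SA libraries, where 31.4% of tested identifiers had no overlap. In EDL it was 206 of 221 and 280 of 361, where 20.7% had none. A called identifier whose sums overlapped was counted here only if its libraries overlapped too, so these member counts may be slightly off. Both muscles met this for 201 of the rises and 272 of the falls, against 11.7% of all 16007. Whether rises and falls differed in this was not tested.

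Changes were larger in SOL. The median log2 fold change of the higher identifiers was 0.77 in SOL and 0.63 in EDL, and that of the lower ones -1.27 in SOL and -0.87 in EDL. The change was larger in size in SOL for 162 of 221 rises and 300 of 361 falls, or 73.3% and 83.1%, while 62.0% of all 16007 were larger in SOL. A test of the difference itself, the SOL change minus the EDL change with the 2 libraries of a sum taken as a pair, called 0 of 16946 identifiers (0.0%) with edgeR, while DESeq2 called 8. Before adjustment, edgeR's p was under 0.05 for 739 of the 16946 (4.36%), among them 8 of the 221 rises and 21 of the 361 falls. The lower identifiers with more than a 2-fold difference between the muscles' changes numbered 44, and the higher ones 3. Of all 16007, 1118 had such a difference. The smallest edgeR adjusted p among the members was 0.696.

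**Figure D2:**
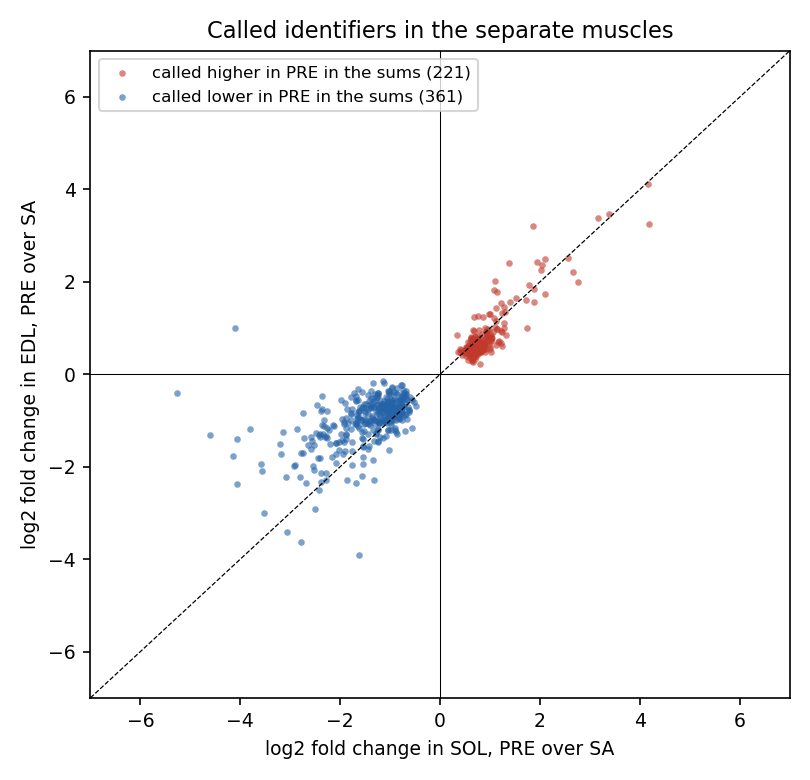
Log2 fold change of PRE over SA in SOL (horizontal) and in EDL (vertical) for the 221 higher (red) and 361 lower (blue) identifiers of the sums that were tested in both muscles, with the line of equal change dashed. The red points lie near the line, and most blue points lie above it, where the fall in SOL is larger than that in EDL, with 1 blue point positive in EDL.

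Identifiers that mark 1 muscle were looked at apart. The difference between the muscles was averaged over HIB, IBA and POST, in the fit of all 30 libraries. PRE and SA libraries thus shared in the filter, the scaling and the spread. By this measure 615 tested identifiers were more than 2-fold higher in SOL and 594 more than 2-fold higher in EDL (edgeR adjusted p under 0.05). Of the 615 high in SOL, 8 were called higher and 2 lower in PRE, or 1.63% in all. Of the 594 high in EDL, 5 were called higher and 7 lower, or 2.02%. Among the 15722 identifiers in neither set, 212 were higher and 357 lower, or 3.62%. The median size of the log2 fold change, whatever its sign, was 0.54 for the identifiers high in SOL, 0.46 for those high in EDL and 0.31 for the others, so a smaller share was called although the changes were larger. The differences between these sets were not tested. The median log2 fold change of the identifiers high in SOL was 0.35 in SOL libraries and 0.20 in EDL libraries, that of the identifiers high in EDL 0.14 and -0.03, and that of the others 0.01 in each. 

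The identifiers that rose or fell before hibernation were followed into the other states. SA and PRE values chose them, so their return towards the middle in other states is partly built into the choice, and comparisons with SA share the SA sums. For the 227 higher identifiers, the median log2 difference from SA stood at 0.73 for PRE, then 0.52 for HIB, 0.39 for IBA and 0.60 for POST. For the 367 lower ones it stood at -1.12 for PRE, then -0.70 for HIB, -0.55 for IBA and -0.98 for POST. Over all tested identifiers it lay between -0.02 and 0.03 in each state. The medians thus lay on the PRE side of SA in every later state. The POST sums were uneven: relative to each identifier's own mean, the median log2 level of the higher set was 0.23, 0.19 and 0.02 in POST replicates 1, 2 and 3, against 0.07 to 0.10 in the HIB sums, and that of the lower set was -0.53, -0.27 and -0.10 in the POST sums.

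Against SA, HIB sums were called higher for 99 of the 227 (4.21% of all tested were higher) and lower for 128 of the 367 (3.81% of all were lower). IBA sums were called higher for 28 (background 0.572%) and lower for 14 (background 0.237%). POST sums were called higher for 133 (background 5.12%) and lower for 246 (background 5.18%). Since all of these are set against the same SA sums, these counts are no separate support for the PRE result. Without regard to p, the HIB level lay on the other side of SA for 9 of the 227 and 13 of the 367.

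Between PRE and HIB, 15 of the 367 identifiers that were low in PRE were called higher in HIB (background 0.306%) and 1 lower. Of the 227 that were high in PRE, 5 were called lower in HIB (background 0.393%) and 1 higher. The median log2 difference of HIB from PRE was 0.46 for the 367 and -0.22 for the 227, in a comparison that shares the PRE sums with the choice. The highest of the 5 state means was that of PRE for 134 of the 227 higher identifiers, that of POST for 50, that of HIB for 32 and that of IBA for 11. SA was the lowest state for 212 of them. The lowest mean of the 367 lower identifiers was that of PRE for 255, that of POST for 92, that of HIB for 14 and that of IBA for 6, and SA was the highest state for 347. Since a PRE and SA difference chose the members, their place at either end is largely fixed by that choice. Over all 17306 tested identifiers, PRE was the highest state for 19.5% and the lowest for 19.0%, and SA the highest for 27.4% and the lowest for 27.8%.

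Comparisons that hold no PRE or SA library were also made. Between POST and IBA, 174 of the 227 higher identifiers (76.7%) had a positive log2 difference, with a median of 0.18, where 50.7% of all tested identifiers were positive. Of the 367 lower identifiers only 35 (9.54%) were positive, with a median of -0.41. Between POST and IBA edgeR called 0 of the 17306 at the adjusted threshold, and 2178 had an unadjusted p under 0.05, among them 55 of the 227 and 140 of the 367. Of the POST sums, POST replicate 1 lay lowest for the lower identifiers (-0.53), and POST replicate 3 lay lowest for the higher ones (0.02), relative to each identifier's own mean. The comparison was repeated without POST replicate 1 but not without POST replicate 3. On log2(CPM + 0.1) the POST minus IBA median of the lower identifiers was -0.41 with all POST sums and -0.32 without POST replicate 1, and that of the higher ones 0.18 and 0.13. On that scale 39 of the 367 lower identifiers (10.6%) were positive with all POST sums and 60 (16.3%) without POST replicate 1, and of the 227 higher ones 176 and 171. Between POST and HIB the medians were 0.08 for the higher and -0.27 for the lower identifiers, and between IBA and HIB they were -0.11 and 0.12.

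**Figure D3:**
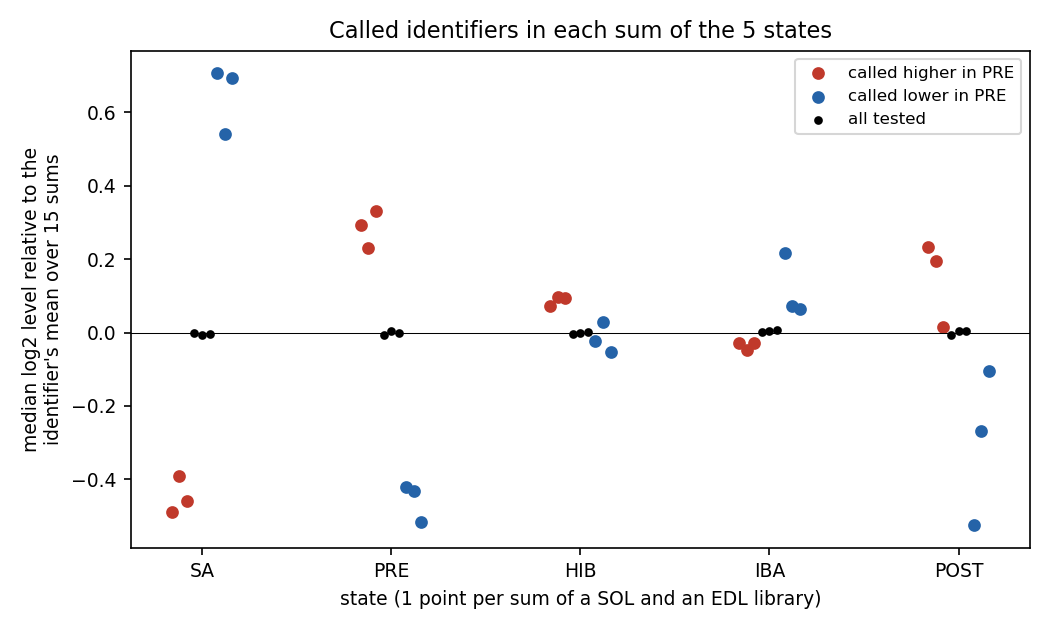
Median level of the 227 identifiers called higher in PRE (red), the 367 called lower (blue) and all 17306 tested (black) in each of the 15 sums, as log2 level relative to the identifier's own mean over the sums (vertical), by state (horizontal). SA and PRE lie far apart, as the choice of identifiers requires, and HIB and IBA lie between. POST is uneven. POST replicate 1 is the lowest sum for the blue set at -0.53, past the PRE sums. POST replicate 3, at 0.02 for the red set, lies below the HIB sums.

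The 4 identifiers given by name were the 2 largest rises and the 2 largest falls among 453 that met a fixed rule, 196 of them higher and 257 lower. The rule asked for a call in the sums, a mean of at least 5 CPM, no overlap of the sums, and the same direction in both muscles. For the 2 rises, PRE lay above SA in every library of the same muscle, while the size of the 2 falls rested largely on 1 SA library.

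Identifier 101966854 stood at 11.6, 13.2 and 36.7 CPM in the PRE sums, against 3.02, 3.28 and 4.17 CPM in the SA sums. The lowest PRE sum was well above the highest SA sum, and PRE replicate 3 was much higher than the other 2. In SOL its levels were 10.7, 11.3 and 40.1 CPM in PRE and 1.90, 3.69 and 4.88 CPM in SA. In EDL they were 12.4, 14.3 and 33.1 CPM in PRE and 4.13, 2.91 and 3.43 CPM in SA. The 2 muscles thus gave nearly the same levels, with PRE replicate 3 highest in each. The log2 fold change was 2.55 ± 0.46 in the sums (SE, edgeR adjusted p = 0.0163), with SOL at 2.57 ± 0.55 (adjusted p = 0.0706 by edgeR) and EDL at 2.51 ± 0.45 (adjusted p = 0.0722 by edgeR).

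The later levels of 101966854 lay between or near those of SA and PRE. Its sums averaged 6.46 ± 2.73 CPM in HIB, 3.45 ± 0.461 in IBA and 5.89 ± 2.60 in POST (SD, n = 3 each), against 20.5 ± 14.1 in PRE and 3.49 ± 0.602 in SA. The log2 difference from PRE was -1.67 in HIB (edgeR adjusted p = 0.0779) and -2.57 in IBA (edgeR adjusted p = 0.0600), neither past the threshold. Its call against SA was lost without PRE replicate 3, SA replicate 1 or SA replicate 3 (edgeR adjusted p = 0.0623, 0.0619 and 0.0618). Its log2 fold change was 1.83 without PRE replicate 3 and at most 2.84 with any other PRE or SA sum left out.

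Identifier Novel00373 stood at 23.5, 13.9 and 19.5 CPM in the PRE sums, against 3.39, 7.16 and 4.25 CPM in the SA sums. In SOL it was at 33.5, 18.1 and 23.4 CPM in PRE and 3.82, 8.82 and 4.81 CPM in SA. In EDL it was at 14.4, 10.3 and 15.3 CPM in PRE and 2.94, 5.38 and 3.68 CPM in SA. PRE lay above SA in every library of the same muscle, and the PRE levels were higher in SOL than in EDL. The log2 fold change was 1.94 ± 0.35 in the sums (SE, edgeR adjusted p = 0.0160), with SOL at 2.10 ± 0.42 (adjusted p = 0.0652 by edgeR) and EDL at 1.74 ± 0.30 (adjusted p = 0.0722 by edgeR).

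The sums of Novel00373 averaged 7.91 ± 1.08 CPM in HIB, 7.05 ± 0.478 in IBA and 8.69 ± 3.88 in POST, against 18.9 ± 4.82 in PRE and 4.93 ± 1.97 in SA (SD, n = 3 each). The log2 difference from PRE was -1.26 in HIB (edgeR adjusted p = 0.0783) and -1.43 in IBA (edgeR adjusted p = 0.118). PRE was its highest state, without a call between PRE and the later states. Its call against SA was lost without PRE replicate 1 or 3 and without SA replicate 1 or 3, with edgeR adjusted p values of 0.0605, 0.0600, 0.0587 and 0.0722. The log2 fold change then ran from 1.73 to 1.92.

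Identifier 101976742 stood at 1.82, 2.13 and 0.811 CPM in the PRE sums, against 80.2, 2.99 and 3.35 CPM in the SA sums. Its SA level was set by 1 library, SA SOL replicate 1 at 157 CPM from 5790 counts, while the other SA SOL libraries stood at 4.29 and 4.09 CPM. The EDL library of the same number stood at 2.61 CPM, close to the 1.5 and 2.57 CPM of the other SA EDL libraries. In PRE the levels were 1.88, 1.46 and 0.934 CPM in SOL and 1.77, 2.58 and 0.680 CPM in EDL, so PRE and SA overlapped in EDL. The log2 fold change was -4.18 ± 1.08 in the sums (SE, edgeR adjusted p = 0.0497), with EDL at -0.41 ± 0.59 (adjusted p = 0.798 by edgeR). Without SA replicate 1 it was -0.999 (edgeR adjusted p = 0.379), and the mean of the log2 CPM of the 2 libraries gave -1.93 (limma adjusted p = 0.140). The call also ended without SA replicate 3, without POST replicate 1 and without any PRE replicate.

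Identifier 101973761 stood at 3.57, 4.89 and 11.0 CPM in the PRE sums, against 253, 18.2 and 28.1 CPM in the SA sums. Here too SA SOL replicate 1 was the highest, at 498 CPM from 18383 counts, with 24.7 and 32.7 CPM in the other SA SOL libraries and 5.03, 10.7 and 23.3 CPM in SA EDL. PRE stood at 4.13, 3.91 and 14.6 CPM in SOL and at 3.06, 5.50 and 7.14 CPM in EDL, so SA and PRE overlapped in EDL but not in SOL. The log2 fold change was -3.94 ± 0.82 in the sums (SE, edgeR adjusted p = 0.0296), with SOL at -4.61 ± 1.11 (adjusted p = 0.0887 by edgeR) and EDL at -1.31 ± 0.73 (adjusted p = 0.435 by edgeR). The mean of the log2 CPM of the 2 libraries gave -2.34, which was still called (limma adjusted p = 0.0209). Without SA replicate 1 the log2 fold change of 101973761 was -1.84 (edgeR adjusted p = 0.0688). The call ended there and also without each PRE replicate in turn. The later levels of 101973761 were as low as in PRE, at 5.23 ± 1.63 CPM in HIB, 3.71 ± 0.613 in IBA and 5.38 ± 1.77 in POST (SD, n = 3 each).

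**Figure D4:**
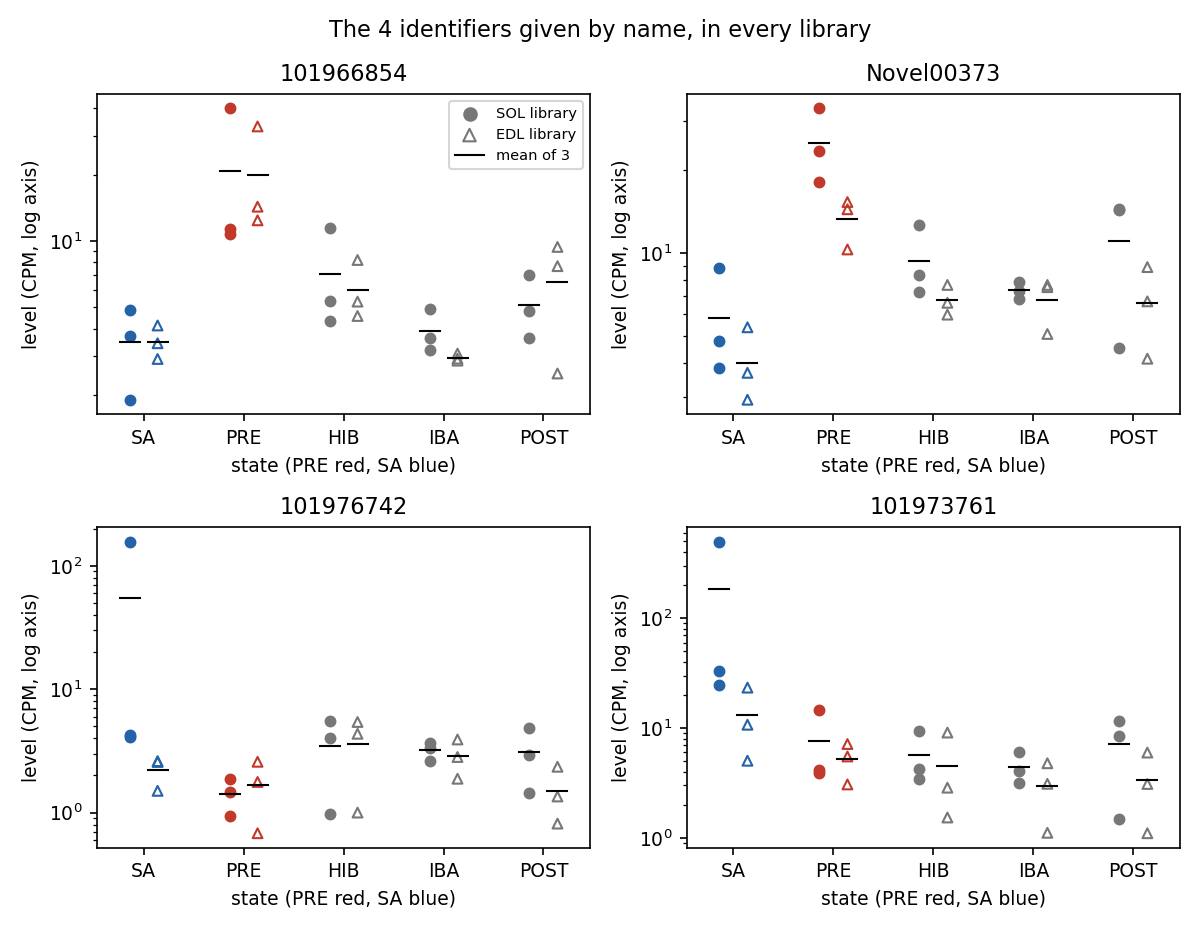
Level in CPM (vertical, log axis) of the 4 identifiers given by name in each of the 30 libraries, by state (horizontal), with SOL libraries as filled circles, EDL libraries as open triangles, PRE in red, SA in blue and the mean of 3 libraries as a line. The 2 upper identifiers are highest in PRE in both muscles, and in the 2 lower ones SA SOL replicate 1, at 157 and 498 CPM, stands far above all other libraries.

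SA SOL replicate 1 stood apart for other identifiers as well, more than any other SOL library of PRE and SA on the higher side. Among 13700 identifiers with a mean of at least 1 CPM, 109 were more than 4 times higher in this library than in both other SA SOL libraries, and 75 were more than 4 times lower than in both. The other 5 SOL libraries of PRE and SA, each set against its own state, had 19 to 49 and 19 to 87 such identifiers. The 49 and the 87 were both those of PRE SOL replicate 3, which had more on the lower side than SA SOL replicate 1. Of the 367 called falls, 5 were more than 4 times higher in SA SOL replicate 1 than in the other SA SOL libraries, and 2 were more than 4 times lower. At 2 times, 20 were higher and 19 lower. Of the 13700 identifiers, 476 were more than 2 times higher and 455 more than 2 times lower. The 2 falls named above are thus among few whose size rests so heavily on this library. Its part in the other falls was not tested beyond the fits without SA replicate 1.

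The number of calls depended on each sum. Leaving out PRE replicate 1, 2 or 3 left 89, 117 or 38 calls, and leaving out SA replicate 1, 2 or 3 left 122, 417 or 39. How much of the loss comes from having 2 sums in a group was not tested. Higher and lower identifiers numbered 26 and 63, 36 and 81, and 13 and 25 without the PRE replicates in the same order, and 24 and 98, 129 and 288, and 9 and 30 without the SA replicates. Without POST replicate 1, which is in neither group, 910 were called, 379 higher and 531 lower, of which 593 were among the 594. When the 6 PRE and SA sums alone were filtered and fitted, which left 16516 identifiers to test, 130 were called, 25 higher and 105 lower, and 116 of them were among the 594. The lower identifiers outnumbered the higher ones in each of these fits, but the share that was higher ran from 19.2% to 41.6% around 38.2%.

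**Figure D5:**
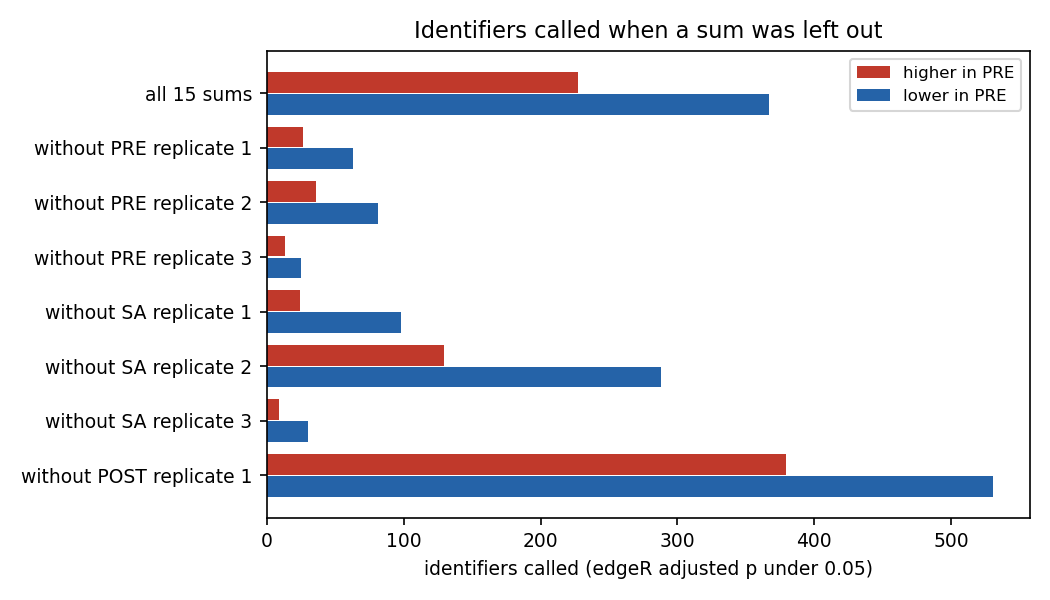
Number of identifiers called higher (red) and lower (blue) in PRE than in SA (horizontal, edgeR adjusted p under 0.05) with all 15 sums and with 1 sum left out (vertical). The counts drop to 13 and 25 without PRE replicate 3 and to 9 and 30 without SA replicate 3, and rise to 379 and 531 without POST replicate 1.

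The direction of the members did not depend on single sums. In each of the 6 fits without a PRE or SA sum, all 594 kept the sign of their log2 fold change, which the lack of overlap between the groups all but fixes. The median of the 227 then lay between 0.70 and 0.75, and that of the 367 between -1.17 and -1.07. Called with all sums and also without each PRE or SA sum in turn were 26 identifiers, 5 higher and 21 lower, while 243 of the 594 were called in none of the 6 fits. The 5 had log2 fold changes of 0.78 to 1.08 and mean levels of 15.3 to 178 CPM, and in all 5 PRE and SA did not overlap in either muscle. The 21 had log2 fold changes from -3.43 to -0.96 with a median of -1.53, and mean levels of 0.473 to 94.1 CPM. Of the 21, 16 had no overlap in either muscle. Among identifiers tested in both muscles this held for 91.0% of the called rises, 75.3% of the called falls and 11.7% of all. The 26 were chosen by sums that hold these libraries, so these counts describe them and add no evidence. The median change of the 21 was -1.68 in SOL and -1.11 in EDL, and that of the 5 was 0.95 and 0.91. Relative to SA, the 21 stood at a median of -1.03 in HIB, -0.73 in IBA and -1.46 in POST, and the 5 at 0.52, 0.62 and 0.72.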

How the data were processed

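RNA of 30 muscle libraries was sequenced. The authors deposited whole-number read counts, one value for each identifier in each library, without normalization. The tools named in the submitters' processing notes are HISAT2 2.0.4 and HTSeq 0.9.1. For build, annotation and strand setting the sources used here give nothing, so counts of near-identical, overlapping or antisense genes are uncertain. Per the labels' protocols, the library kit was NEBNext Ultra.

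Groups and numbers come from the titles. Counts of same-numbered SOL and EDL libraries were added. The labels do not say that they share an animal. Their deviations from the group means correlated at 0.32 to 0.47 in the 6 PRE and SA pairs. SOL and EDL libraries of different numbers within a state correlated at -0.34 to -0.0122. Deviations within a group of 3 cancel out, so the 2 ranges are not independent. Sums of the same number in PRE and SA correlated at -0.17 to 0.04, and those of different numbers at -0.11 to 0.147. So few values cannot decide whether numbers pair the states, which the labels do not say either. The labels do not say whether replicates are separate animals, so a p-value measures only the spread among these samples, which may be technical. No 2 sums of a state were alike within counting noise.

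The 15 sums of 5 states were fitted together in R 4.3.3 with edgeR 4.0.16 (filterByExpr with a minimum count of 10, TMM, quasi-likelihood F test, Benjamini-Hochberg threshold 0.05). Each muscle was fitted on its own 15 libraries, and the difference between muscles on all 30, with the pair as a block. A standard error is the log2 fold change divided by the square root of F, and levels are TMM-scaled CPM. DESeq2 1.42.0 and limma 3.58.1 were alternatives. Identifiers were named by a fixed rule, at most 2 in each direction since no names are paired with them, and gene lists could not be used. The comparison, lists and tests were chosen with earlier results of these data known. For identifiers with a mean of at least 1 CPM in the state, the median coefficient of variation between sums was 14.5% in PRE and 14.5% in SA. In POST it was 21.2%. The single spread that edgeR estimated over all 15 sums and all 17306 tested identifiers, the square root of its common dispersion, was 30.4%. It is a different measure from these medians and includes identifiers under 1 CPM, so the values cannot be compared directly.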

Additional observations from a re-analysis of the deposited data

How the results depend on the processing

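Of the 594 calls, 582 remained among 607 with DESeq2's size factors and 383 among 414 when the log2 CPM of the muscles were averaged and tested with limma. The counts moved further, with causes that were not tested, to 383 without a filter (117 higher, 266 lower), 1818 with DESeq2 (753 and 1065), and 130 with PRE and SA alone (25 and 105). With the replicate number as a replicate block across states, for which the labels give no ground, 247 were called (82 and 165). Leaving out 1 sum gave 38 to 910 calls, 9 to 379 higher and 25 to 531 lower, the highest without POST replicate 1. Chosen after seeing the data, leaving out SA replicate 1 gave 13 calls (4 and 9) with PRE and SA alone, and 254 (66 and 188) without POST replicate 1 as well. In SOL the 9 calls became 17 without a filter, 1073 with DESeq2, 424 with PRE and SA alone, 1 with the replicate block, 1 to 2 without 1 PRE or SA library, and 979 without POST replicate 1. In EDL, 11 were called without a filter, 539 with DESeq2 and 0 to 58 without 1 library, 58 being without SA replicate 2. The difference between muscles gave 8 calls with DESeq2 and 0 in the other settings, with 288 to 1116 at an unadjusted p under 0.05. The share of higher calls was 30.5% without a filter and 19.2% with PRE and SA alone. With PRE and SA alone, none of the 4 named identifiers passed (edgeR adjusted p from 0.0536 to 0.124), and the replicate block ended the calls of 101976742 (0.108) and 101973761 (0.0616). No named identifier changed direction in the settings run. The differences in the shares of counts kept their direction in the settings run: 1.36 to 4.18 percentage points for the 50 most abundant identifiers, 1.03 for the 10 and 4.10 for the 500 most abundant, and 0.0346 to 0.0685 for those with a prefix.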
